A study of Danio rerio with 15 samples.

Results

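The genes described here encode the ion transporters, ion channels, water channels and tight junction claudins of the adult zebrafish kidney. They were chosen by symbol, as the families slc4, slc8, slc9, slc12, slc20, slc24, slc26, slc30, slc31, slc34, slc39, slc40 and slc41, atp1a and atp1b, atp2, atp6v, clcn, kcn, scn, cacn, trpc, trpm and trpv, aqp, cldn and fxyd. Earlier results of these data were known when this choice was made. With the 2 matching genes slc26a6l and slc4a1a set aside, the families gave 89 of the 5686 genes in the table. All 89 passed the filter on low values. RefSeq lists 452 protein-coding zebrafish symbols of these families, so the table holds a part of them. Genes that it does not list, such as slc12a1, slc12a3, clcnk, atp1a1a.4 and atp1b1a, were not analysed here.

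RNA was sequenced from whole kidneys of 6-month-old fish with 3 samples in each of 5 groups, of which 1 was uninjured and the others were collected 1, 3, 5 and 7 days post injury (dpi). Acute kidney injury was induced with an intraperitoneal injection of gentamicin, an aminoglycoside antibiotic that is toxic to the proximal tubule. Fish of the AB wild-type strain were used throughout, and injured fish were chosen for protein in the urine at 1 dpi, so the injured groups stand for fish with that sign of damage. Whether a sample is 1 fish or a pool is not stated in the sources used here, so the spread between the 3 samples of a group may be partly technical.

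The zebrafish kidney is a mesonephros, in which each nephron filters blood at a glomerulus and then recovers solutes along proximal and distal tubules, while haematopoietic tissue fills the space between the nephrons. Transport across the tubule wall is driven by the sodium-potassium pump of the basolateral membrane. Sodium-coupled carriers and exchangers then move phosphate, bicarbonate and protons through the cell, and channels return potassium and pass chloride. Claudins seal the space between the cells and determine which ions leak through it. Freshwater fish take up water across the skin and gills and excrete it as dilute urine, so the recovery of salt along the tubule is a main task of this organ.

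Values are FPKM, which are fragments per kilobase of gene length scaled to the mapped fragments of the library, and therefore compare levels between genes per length. The libraries behind them held between 13876000 and 16368000 reads. Differences are given as log2 changes of FPKM + 1, which understate the change of genes near or below 1 FPKM. Of the 89 genes, 65 averaged at least 1 FPKM and 24 averaged less, and 15 had fewer than 3 reads in at least 1 sample. A gene was called when its limma p, adjusted over all 5685 genes tested, was below 0.05. Of all genes tested, 70.8% had an unadjusted limma F-test p below 0.05 among the 5 groups, so the table is rich in genes that differ and the adjusted p-values can be too small.

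The cell makeup of the libraries differed in ways that the group names do not give. The mean of 13 oocyte genes, in log2(FPKM + 1), was 5.16, 0.22 and 5.74 in the 3 uninjured kidneys, 1.12, 4.06 and 0.47 at 1 dpi, 0.17, 0.80 and 0.24 at 3 dpi, 4.76, 0.28 and 0.32 at 5 dpi and 2.84, 2.34 and 3.18 at 7 dpi. Oocyte transcripts were thus plentiful in 2 of the uninjured libraries and in single libraries at 1 and 5 dpi, and low in all 3 libraries at 3 dpi. The mean of 10 proximal tubule genes lay between 4.85 and 5.63 at 1 dpi, 4.34 and 4.65 at 3 dpi, 3.74 and 5.08 at 5 dpi and 4.09 and 4.14 at 7 dpi, against 5.65 to 6.08 in uninjured kidneys. All 3 uninjured libraries were above all 12 injured ones for this list. In bulk kidney RNA, fewer tubule cells and less RNA of a gene per cell cannot be told apart.

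Of the 89 genes, 62 (69.7%) differed among the 5 groups, against 64.5% of all genes tested (limma F-test). When all 4 injured groups were set against uninjured kidneys, 34 of the 89 were called (38.2%), against 32.1% of all genes tested. Of these, 24 were lower after injury (27.0%, against 16.9% of all genes) and 10 were higher (11.2%, against 15.2%). The median log2 change of the 89 genes was -0.17, and that of all genes tested was -0.06. The call count fell to 22 without the first uninjured library, against 985 for all genes. Without any other single library it ranged from 26 to 38, against 1171 to 2133 for all genes. With every library 1824 of all genes were called. Of the 34 calls, 18 were kept whichever library was left out. In 3 genes every injured sample was above every uninjured one (3.17% of all genes), and in 8 every injured sample was below (5.14% of all genes).

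The late kidneys of 5 and 7 dpi were compared directly with the early kidneys of 1 and 3 dpi. Here 25 of the 89 genes were called (28.1%), against 35.6% of all genes tested. Of these, 21 were lower in late kidneys (23.6%, against 20.5% of all genes) and 4 were higher (4.49%, against 15%). Under quantile normalization 14 of the 25 calls remained. The 11 that did not were cldnc, cldnd1b, slc9a3.1, slc20a1b, slc34a1a, slc26a10, slc30a1a, slc30a7, atp6v0a1a, cacna1sa and trpc4apb. All 6 late samples were above all 6 early ones in 1 gene (2.27% of all genes) and below them in 2 (3.73% of all genes). The calls of cldnd1b, cacna1sa, cacnb2b and trpc4apb were lost without any 1 of 8, 13, 4 and 1 libraries, and the other 21 were kept whichever library was left out.

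Group by group, 34 of the 89 genes had their highest mean at 1 dpi and 33 in uninjured kidneys, while 28 had their lowest mean at 3 dpi and 30 at 7 dpi. In the whole table the corresponding shares were 31.7%, 32.8%, 26.1% and 25.4%, against 38.2%, 37.1%, 31.5% and 33.7% of the 89 genes. The heat map of all members by sample shows each gene's course.

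**Figure D1:**
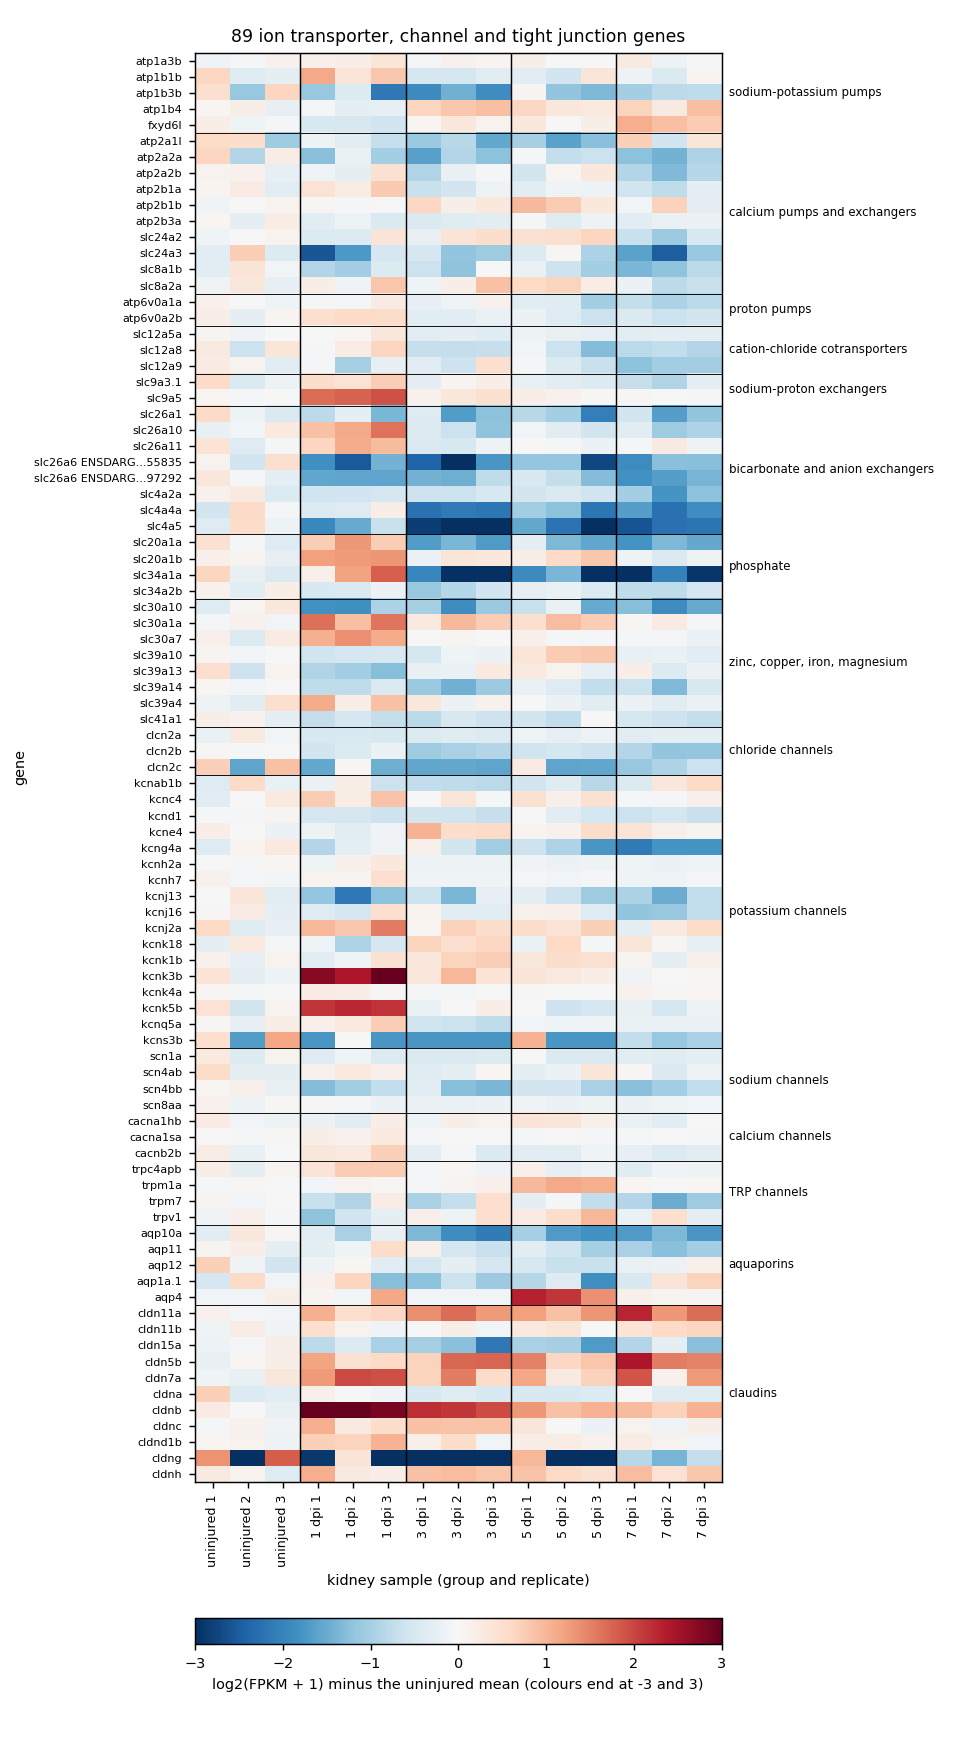
Log2(FPKM + 1) of each of the 89 genes (rows, grouped by class) in each of the 15 kidney samples (columns), minus the mean of the 3 uninjured samples; red is higher and blue is lower than that mean, and colours end at 3 and -3. The claudin cldnb and the potassium channels kcnk3b and kcnk5b are red in all 3 samples at 1 dpi, and the rows of slc34a1a, slc4a4a and slc4a5 are blue from 3 dpi on.

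Compared with uninjured kidneys in turn, with only the 6 samples of the 2 groups in each fit, the 89 genes gave 16 calls at 1 dpi, 10 higher and 6 lower, against 19.8% of all genes called (12.9% higher, 6.90% lower). At 3 dpi there were 17 calls, 5 higher and 12 lower, against 13.3% of all genes called (6.40% higher, 6.91% lower). At 5 dpi there were 7, 4 higher and 3 lower, against 8.16% of all genes called (6.70% higher, 1.46% lower). At 7 dpi there were 26, 4 higher and 22 lower, against 17.2% of all genes called (4.78% higher, 12.4% lower). The samples of 1, 3, 5 and 7 dpi lay wholly above the uninjured ones in 21, 13, 15 and 7 of the 89 genes (24.6%, 18.5%, 21.5% and 15.1% of all genes) and wholly below them in 19, 33, 18 and 37 (20.1%, 24.7%, 16.3% and 27.4% of all genes). These counts changed when single libraries were left out, and so did those of all genes tested. At 1 dpi the count was 8 without the first uninjured library, 9 without the first and 7 without the second library of 1 dpi. Of all genes, 539, 644 and 572 were called in these fits, against 1127 with every library. At 3 dpi the member count was 4, 30 and 6 without the uninjured libraries in turn, and 9, 1 and 4 without those of 3 dpi. Of all genes, 138, 1678 and 230 and then 361, 50 and 159 were called in these fits, against 757 with every library. At 5 dpi the member count was 0, 0 and 2 without the uninjured libraries in turn and 4, 0 and 1 without those of 5 dpi. The 3 counts of 0 had 22, 24 and 21 members at an unadjusted limma p below 0.05. Of all genes, 0, 0 and 119 and then 189, 0 and 11 were called in these fits, against 464 with every library. At 7 dpi the member count was 6 without the first uninjured library and 0 without any 1 library of 7 dpi. The counts of 0 had 35, 35 and 33 members at an unadjusted limma p below 0.05. Of all genes, 153 and then 0, 7 and 0 were called in these fits, against 975 with every library. No calls other than 6 at 1 dpi and 1 at 3 dpi were kept whichever library was left out, so the accounts below use the tests over all 15 samples and each sample's value. The scale of the values matters as well. Quantile normalization gives each sample the same distribution over the listed genes. These held 24.8% to 26.1% of reads in uninjured kidneys, 29.4% to 34.2% at 1 dpi and 19.4% to 20.5% at 7 dpi. It can therefore also remove differences between groups. With it the median change of all genes moved to 0.08 at 3 dpi, against -0.13 as deposited, and to -0.06 at 7 dpi, against -0.22. Under that scaling 6 of the 15 members called at 3 dpi and 8 of the 13 called at 7 dpi were lower, as were 268 of the 906 called among all genes at 3 dpi and 214 of the 571 at 7 dpi.

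The claudin cldnb had the largest change in log2(FPKM + 1) at 1 dpi of the 89 genes, a scale that understates the change of low-level genes. As a ratio of means, slc9a5 and kcnk3b rose more. Claudins are membrane proteins that join neighbouring epithelial cells and give a tubule segment its tightness and ion selectivity. Of the 11 genes, 7 (63.6%) differed among the groups, against 64.5% of all genes tested (limma). In injured against uninjured kidneys 5 rose (45.5%, against 15.2% of all genes) and 1 fell (9.09%, against 16.9%), with a median log2 change of 0.41. The transcript of cldnb, at chr21:25729129-25730235 (GRCz11), stood at 24.3, 20.2 and 17.5 FPKM in uninjured kidneys, 208, 182 and 154 at 1 dpi, 98.3, 94.3 and 82.1 at 3 dpi, 52.1, 38.3 and 43.2 at 5 dpi and 40.8, 33.9 and 43.0 at 7 dpi. Every injured sample was above every uninjured one, and the groups of 1 dpi, 3 dpi and the later days did not overlap each other. The mean at 1 dpi, 182 ± 27.1 FPKM, was 8.78 times the uninjured mean of 20.7 ± 3.39 (SD, n = 3 each), a log2 change of 3.07 (SE 0.22, limma adjusted p = 0.00057). Against uninjured kidneys over all days the change was 1.79 (SE 0.14, limma adjusted p = 3.2e-05). Between late and early injured kidneys it fell by 1.60 on the log2 scale (SE 0.13, limma adjusted p = 2e-06).

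Next to cldnb on chromosome 21 lies cldnc, 9614 bases away, and cldnh follows 12856 bases from cldnc. These neighbours had their own time courses. The level of cldnc was 47.0, 52.7 and 44.9 FPKM in uninjured kidneys, 103, 58.3 and 70.3 at 1 dpi, 89.5, 87.9 and 88.1 at 3 dpi, 62.0, 48.1 and 42.5 at 5 dpi and 51.8, 44.7 and 54.9 at 7 dpi. Its mean was highest at 3 dpi, where the SD of the 3 samples was 0.902 FPKM, and at 7 dpi its range overlapped that of uninjured kidneys (limma F-test adjusted p = 0.008). For cldnh, the most abundant claudin in this set, the uninjured values of 75.8, 66.6 and 47.7 FPKM were followed by 134, 75.0 and 71.8 at 1 dpi, 115, 119 and 111 at 3 dpi, 114, 94.6 and 86.1 at 5 dpi and 120, 84.6 and 109 at 7 dpi. It stayed above the uninjured range from 3 dpi on, with a log2 change of 0.69 over all injured groups (SE 0.20, limma adjusted p = 0.02, and 0.12 without the third uninjured library).

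A further pair of claudins had their highest means at 7 dpi. The level of cldn11a was 15.2, 13.3 and 13 FPKM in uninjured kidneys, 30, 19.6 and 21.8 at 1 dpi, 38.2, 46.6 and 34.9 at 3 dpi, 33.6, 26.1 and 36.0 at 5 dpi and 71, 35.2 and 46.4 at 7 dpi. All 12 injured samples were above the uninjured ones, and the mean at 7 dpi was 3.68 times the uninjured mean (injured against uninjured 1.27, SE 0.19, limma adjusted p = 0.00092). Its gene overlaps slc2a2, a glucose transporter gene on the other strand, which was lower after injury, at 8.14 to 14.6 FPKM at 7 dpi, against 40.9 to 62.7 in uninjured kidneys. Claudin-5 in mammals is the main claudin of endothelium and is also made by podocytes, the filter cells of the glomerulus. Its zebrafish relative cldn5b had 5.03, 6.27 and 6.88 FPKM in uninjured kidneys, 14.9, 8.70 and 9.64 at 1 dpi, 10.1, 22.1 and 22.6 at 3 dpi, 18.9, 9.72 and 11.5 at 5 dpi and 36.6, 19.5 and 18.6 at 7 dpi. Again no injured sample fell within the uninjured range (1.23, SE 0.28, limma adjusted p = 0.0072). The podocyte transcription factor genes wt1a and wt1b had a mean of 3.39 to 3.83 in log2(FPKM + 1) at 5 dpi and 3.00 to 3.28 at 7 dpi, against 2.06 to 2.16 in uninjured kidneys; no endothelial marker on the list is in the table, and the part of either cell type in the rise of cldn5b was not tested.

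The remaining claudins differed in direction. For cldn7a the uninjured samples had 1.5, 1.35 and 2.48 FPKM, followed by 5.62, 9.84 and 9.39 at 1 dpi, 3.33, 6.89 and 2.99 at 3 dpi, 5.13, 2.3 and 3.38 at 5 dpi and 9.13, 1.99 and 5.59 at 7 dpi. Single samples at 5 and 7 dpi lay within the uninjured range, and the overall change of 1.11 (SE 0.34, limma adjusted p = 0.026) had an adjusted p of 0.10 and 0.074 without the first and the second uninjured library. In contrast, cldn15a fell. In mammals claudin-15 forms cation pores in the intestine. Its values were 18.2, 19.9 and 23.3 FPKM in uninjured kidneys, 11.3, 15.2 and 9.80 at 1 dpi, 9.66, 7.99 and 3.86 at 3 dpi, 9.94, 9.72 and 5.53 at 5 dpi and 10.7, 16.7 and 8 at 7 dpi, all injured samples being lower (-1.05, SE 0.26, limma adjusted p = 0.011, and 0.052 without the third uninjured library). The claudin domain gene cldnd1b averaged 16.6 ± 2.60 FPKM at 1 dpi and 9.55 to 10.7 on the later days, against 8.97 ± 0.899 in uninjured kidneys. The paralog of cldn11a, cldn11b, ranged from 3.12 to 6.01 FPKM over all samples and was not called (limma F-test adjusted p = 0.12).

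**Figure D2:**
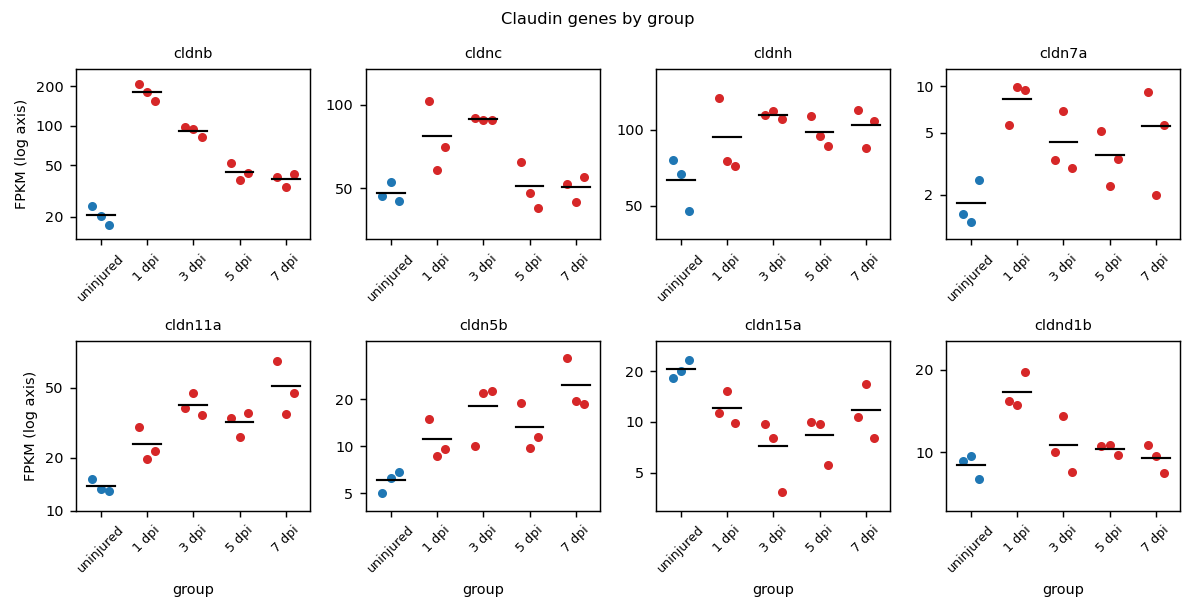
FPKM (log axis) of 8 claudin genes in the 3 kidney samples of each group (points; blue, uninjured; red, injured), with the group mean as a bar. The points of cldnb fall step by step after 1 dpi, the means of cldn11a and cldn5b are highest at 7 dpi, each with 1 sample far above the other 2, and those of cldn15a are below the uninjured samples throughout.

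Of the tight junction scaffold and partner genes on a separate list of 32, 9 are in the table. After injury none of them rose (15.2% of all genes) and 2 fell (22.2%, against 16.9%). In late against early kidneys 1 was higher (11.1%, against 15% of all genes) and 4 were lower (limma, 44.4%, against 20.5%). The median change after injury was -0.17, against 0.41 for the claudins. The polarity gene pard6b, for example, had 2.98, 3.27 and 4.39 FPKM at 7 dpi, against 10.0, 10.1 and 9.95 in uninjured kidneys, while its relative pard6a was at 4.33, 4.31 and 10.8 FPKM at 1 dpi, against 2.00, 0.953 and 1.45. The difference between the lists was not tested.

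All 4 phosphate carrier genes in the table differed among the groups, against 64.5% of all genes tested (limma F-test). The kidney recovers filtered phosphate through sodium-phosphate cotransporters of the SLC34 family in the brush border of the proximal tubule, while the SLC20 proteins supply phosphate to cells in general. The brush border gene slc34a1a, at chr14:818225-840728, was the most abundant gene of this class, with 297, 163 and 141 FPKM in uninjured kidneys and 211, 440 and 659 at 1 dpi. It then stood at 48.1, 21.9 and 12.7 FPKM at 3 dpi, 49.9, 73.2 and 16.5 at 5 dpi and 11.5, 45.8 and 24.1 at 7 dpi. All 9 samples from 3 dpi on were below all 6 earlier ones, and the mean at 7 dpi was 0.135 times the uninjured mean. The limma adjusted p was 0.00075 in the F-test. Between late and early injured kidneys the log2 change was -1.66 (SE 0.46, limma adjusted p = 0.016). Against uninjured kidneys over all days it was -1.77 (SE 0.52, limma adjusted p = 0.022, and 0.12 without the first uninjured library).

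The SLC20 gene slc20a1a, at chr8:31047865-31065783, is on the list of nephron segment genes given below. It had 76.0, 53.1 and 42.4 FPKM in uninjured kidneys and 93.7, 138 and 92.8 at 1 dpi. Later values were 16.6, 20.7 and 16.3 at 3 dpi, 46.1, 21.3 and 18.3 at 5 dpi and 15.3, 21.3 and 18.6 at 7 dpi. Here the 1 dpi samples lay above all others, and the samples of 3 and 7 dpi lay below all uninjured ones (limma F-test adjusted p = 0.00017; late against early -0.97, SE 0.22, limma adjusted p = 0.0061). Its paralog slc20a1b rose at 1 dpi and returned. It had 43.6, 41.2 and 32.8 FPKM in uninjured kidneys and 92.7, 95.8 and 99.5 at 1 dpi, a change of 1.28 on the log2 scale (SE 0.19, limma adjusted p = 0.0073), and 34.7, 28.7 and 34.7 at 7 dpi. Its call at 1 dpi was lost when the libraries rich in oocyte genes were removed, which left 1 uninjured library. The low-level gene slc34a2b averaged 1.34 ± 0.27 FPKM at 1 dpi and 0.659 ± 0.32 at 3 dpi, followed by 1.43 ± 0.189 at 5 dpi and then 0.866 ± 0.194 at 7 dpi, against 2.00 ± 0.525 in uninjured kidneys (SD, n = 3 each), and its call after injury was lost without the first or the third uninjured library. Beside these, pdzk1, which encodes a brush border scaffold that holds phosphate carriers in mammals, had 63.5, 50.7 and 59.7 FPKM at 7 dpi, against 153, 195 and 170 in uninjured kidneys, and 136, 150 and 266 at 1 dpi.

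The bicarbonate and anion carriers were the class with the most falls. SLC4 proteins move bicarbonate across the basolateral membrane, and SLC26 proteins exchange sulfate, oxalate, chloride and bicarbonate. Of the 8 genes, 7 (87.5%) differed among the groups, against 64.5% of all genes tested. After injury 6 fell (75%, against 16.9% of all genes) and none was higher (15.2% of all genes), with a median change of -1.2 (limma). These counts were the same under median-of-ratios scaling and under quantile normalization. The largest fall of the class was in slc4a5, an electrogenic sodium bicarbonate cotransporter gene at chr10:44977460-45054832. Its values were 18.1, 36.0 and 21.5 FPKM in uninjured kidneys, 5.58, 7.76 and 14.9 at 1 dpi, 2.54, 0.480 and 0.303 at 3 dpi, 7.65, 4.46 and 1.91 at 5 dpi and 3.2, 4.29 and 4.50 at 7 dpi. Every injured sample was below every uninjured one, and the mean at 3 dpi was 0.0439 times the uninjured mean (injured against uninjured -2.43, SE 0.37, limma adjusted p = 0.00093).

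The related gene slc4a4a, whose mammalian relative is the main exit for bicarbonate from proximal tubule cells, fell later. At 1 dpi it had 36.4, 37.1 and 56.9 FPKM, within the uninjured range of 33.3, 73.8 and 48.0. It then had 9.59 to 10.5 FPKM at 3 dpi, 23.4, 20.4 and 10.1 at 5 dpi and 14.9, 9.56 and 12.8 at 7 dpi, all below the uninjured samples (limma F-test adjusted p = 0.00042; injured against uninjured -1.45, SE 0.26, limma adjusted p = 0.0021). The anion exchanger gene slc4a2a was lower at every time, with 61.6 to 66.2 FPKM at 1 dpi and 59.9 to 67.6 at 3 dpi, then 61.8 to 69.9 at 5 dpi and lastly 26.9 to 46.1 at 7 dpi, against 70.6 to 114 in uninjured kidneys (-0.75, SE 0.17, limma adjusted p = 0.0061).

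Both genes named slc26a6 fell. They lie 670 bases apart on chromosome 8, on the same strand, at chr8:26234113-26248290 (ENSDARG00000097292) and chr8:26248961-26269367 (ENSDARG00000055835), and reads of similar stretches may have been split between them. In mammals this protein exchanges chloride for oxalate and other anions at the apical membrane of the proximal tubule. The more abundant copy, ENSDARG00000055835, had 127, 79.4 and 166 FPKM in uninjured kidneys, 32.7, 19.9 and 43.5 at 1 dpi, 21.8, 13.1 and 34.5 at 3 dpi, 52.7, 52.5 and 17.0 at 5 dpi and 31.4, 49.3 and 48.7 at 7 dpi. For ENSDARG00000097292 the values were 7.32, 5.31 and 4.42 FPKM in uninjured kidneys, 1.22, 1.2 and 1.2 at 1 dpi, 1.46, 1.38 and 2.90 at 3 dpi, 3.83, 3.04 and 1.66 at 5 dpi and 0.874, 1.1 and 1.51 at 7 dpi. In both copies every injured sample was below every uninjured one, and the log2 changes after injury were -1.87 (SE 0.37, limma adjusted p = 0.0035) and -1.31 (SE 0.21, limma adjusted p = 0.0012). Their calls at 1 and 3 dpi were lost when the libraries rich in oocyte genes were removed, which left 1 uninjured library. The sulfate carrier gene slc26a1 had 170, 103 and 84.7 FPKM in uninjured kidneys and between 27.0 and 93.7 in the injured groups, where 1 sample at 1 dpi and 1 at 3 dpi lay within the uninjured range. Its change of -1.09 (SE 0.35, limma adjusted p = 0.032) had an adjusted p of 0.17 without the first uninjured library.

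Not all of the class was lower. The levels of slc26a10 were 36.5, 44.1 and 62.4 FPKM at 1 dpi, against 16.5, 18.4 and 24.2 in uninjured kidneys, and 14.5, 12 and 7.83 at 3 dpi (limma F-test adjusted p = 0.00052). Similarly, slc26a11, an anion carrier gene, averaged 9.27 ± 1.65 FPKM at 1 dpi, against 4.61 ± 1.54 in uninjured kidneys (SD, n = 3 each; limma F-test adjusted p = 0.0048). That test covers all 5 groups, and slc26a11 was not called at 1 dpi against uninjured kidneys.

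**Figure D3:**
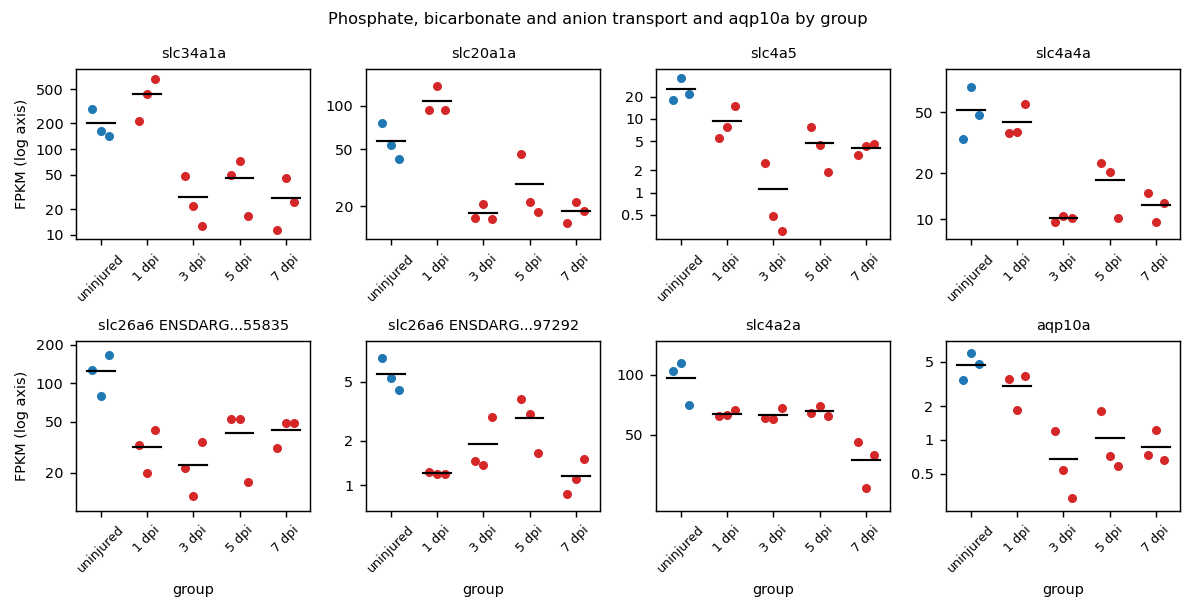
FPKM (log axis) of slc34a1a, slc20a1a, slc4a5, slc4a4a, both genes named slc26a6, slc4a2a and aqp10a in the 3 kidney samples of each group (points; blue, uninjured; red, injured), with the group mean as a bar. At 1 dpi slc34a1a and slc20a1a are not below the uninjured samples and slc4a4a overlaps them, while slc4a5 and both slc26a6 genes are already lower. From 3 dpi on, the samples of slc34a1a, slc4a4a, slc4a5, aqp10a and both slc26a6 genes are all below the uninjured ones.

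Of the 23 nephron segment genes on a list of these families, 8 are in the table, with limma adjusted p from 0.067 to 0.83 at 1 dpi. The mean at 1 dpi was above that of uninjured kidneys for slc34a1a, slc20a1a and cldnh and below it for slc4a4a, slc26a1, slc34a2b, trpm7 and aqp1a.1. The general proximal tubule markers did not move as 1 group either. The endocytic receptor gene cubn averaged 15 ± 8.99 FPKM at 1 dpi, against 71.3 ± 14.6 in uninjured kidneys (SD, n = 3 each), whereas the enzyme gene acy1 was at 50.9, 55.7 and 68.1 at 1 dpi, against 44.5, 62.0 and 53.2. Of the 10 proximal tubule genes in the table, 0 rose and 6 fell after injury (60%, against 16.9% of all genes), with a median change of -1.02 (limma). The part of lost proximal tubule cells in the falls above was not tested.

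Protons and sodium leave and enter the tubule cell through SLC9 exchangers and vacuolar proton pumps. The sodium-proton exchanger gene slc9a3.1, related to the apical exchanger of the mammalian proximal tubule, was abundant, with 92.1, 45.1 and 54.8 FPKM in uninjured kidneys, 89.2, 82.4 and 102 at 1 dpi, 50, 64.9 and 70.2 at 3 dpi, 52.4, 48.1 and 45.4 at 5 dpi and 37.2, 32.3 and 50.7 at 7 dpi. Its injured and uninjured samples overlapped, and the change lay between late and early injured kidneys (-0.76, SE 0.18, limma adjusted p = 0.0064). Its low-level relative slc9a5 behaved differently. It had 2.56, 2.81 and 3.23 FPKM at 1 dpi, from 182 to 222 reads, against 0.159, 0.0731 and 0.124 in uninjured kidneys, from 5 to 10 reads. By 3 dpi it was at 0.218, 0.421 and 0.567 FPKM and by 7 dpi at 0.137, 0.101 and 0.0687. The mean at 1 dpi was 24.1 times the uninjured mean, and the log2 change of 1.79 (SE 0.16, limma adjusted p = 0.0012) was kept whichever library was left out.

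Both proton pump genes in the table encode the membrane subunit a of the vacuolar ATPase, and both were lower in late than in early kidneys, as were 20.5% of all genes (limma). The level of atp6v0a1a was 58.1, 52.5 and 48.3 FPKM in uninjured kidneys, 50.5, 50.6 and 63.3 at 1 dpi, 44.1, 48.2 and 57.6 at 3 dpi, 41.8, 40.9 and 25.5 at 5 dpi and 31.6, 27.1 and 29.9 at 7 dpi (late against early -0.67, SE 0.14, limma adjusted p = 0.0031). All 6 late samples were below all 6 early ones. For atp6v0a2b the group means were 11.7 ± 2.21 FPKM in uninjured kidneys, 17.2 ± 0.495 at 1 dpi and 9.35 ± 0.504 at 3 dpi, then 8.58 ± 1.55 at 5 dpi and lastly 7.63 ± 0.644 at 7 dpi (SD, n = 3 each; late against early -0.60, SE 0.12, limma adjusted p = 0.0028).

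Sodium-potassium pumps consist of a catalytic alpha and a glycosylated beta subunit, and FXYD proteins are small membrane partners that tune them. Of the 5 listed genes, 3 (60%) differed among the groups, against 64.5% of all genes tested (limma F-test). The FXYD gene fxyd6l was at 26.1, 20.6 and 21.6 FPKM in uninjured kidneys, 16.3, 16.0 and 14.9 at 1 dpi, 23.8, 28.5 and 24.6 at 3 dpi, 28.3, 22.5 and 25.9 at 5 dpi and 49.4, 42.9 and 39.3 at 7 dpi. It was lowest at 1 dpi and highest at 7 dpi, and neither group overlapped any other (limma F-test adjusted p = 0.00021; late against early 0.71, SE 0.11, limma adjusted p = 0.00044). The gene overlaps si:dkey-56f14.7 on the other strand, which was at 17.7, 29.8 and 13.3 FPKM at 7 dpi, against 9.91, 9.18 and 14.0 in uninjured kidneys, and whose part in these reads was not tested. Levels of atp1b4 were 1.43, 1.06 and 1.11 FPKM at 1 dpi, 2.85, 3.32 and 3.67 at 3 dpi, 2.83, 2.16 and 2.03 at 5 dpi and 2.95, 1.98 and 3.63 at 7 dpi, against 1.60, 1.79 and 1.11 in uninjured kidneys, so that all 9 samples from 3 dpi on were above the earlier 6 (limma F-test adjusted p = 0.006). In placental mammals ATP1B4 has lost its pump role and acts in the nucleus of muscle cells, which was not tested for the zebrafish gene. The alpha subunit gene atp1a3b stayed between 0 and 0.441 FPKM. The beta subunit gene atp1b1b averaged 2.03 ± 0.792 FPKM at 1 dpi and at most 0.58 later, against 0.819 ± 0.743 in uninjured kidneys (limma F-test adjusted p = 0.025, and 0.11 and 0.072 without the first and the third library of 1 dpi).

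Potassium channels formed the largest class, with 17 genes. They set the membrane voltage that drives the other carriers, and the 2-pore KCNK channels carry background potassium currents. Of the 17, 10 (58.8%) differed among the groups, against 64.5% of all genes tested (limma). After injury 1 rose (5.88%, against 15.2% of all genes) and 3 fell (17.6%, against 16.9%), with a median change of -0.01. In late against early kidneys 3 were lower (17.6%, against 20.5% of all genes). The pair with the largest changes was made of 2-pore channels. The level of kcnk3b, a relative of the acid-sensitive mammalian channel TASK-1, was 11.3, 8.84 and 17.6 FPKM at 1 dpi, 1.35, 2.69 and 1.44 at 3 dpi, 1.41, 1.27 and 1.11 at 5 dpi and 0.702, 0.824 and 0.898 at 7 dpi, against 1.45, 0.540 and 0.663 in uninjured kidneys. The 3 samples at 1 dpi stood far above the other 12, and the log2 change was 2.83 (SE 0.34, limma adjusted p = 0.0033). Its gene, at chr17:45471691-45475955, lies within ezra on the same strand, which encodes the brush border linker ezrin and was at 54.8, 43.3 and 85.5 FPKM at 1 dpi, against 39.6, 37.9 and 23.1 in uninjured kidneys. The share of ezra reads counted for kcnk3b was not tested.

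The other was kcnk5b, a relative of the alkaline-sensitive mammalian channel TASK-2, which supports bicarbonate recovery in the proximal tubule. It had 27.2, 29.8 and 27.8 FPKM at 1 dpi, against 7.62, 3.37 and 5.93 in uninjured kidneys, and between 3.16 and 6.37 FPKM in all 9 later samples. Its change at 1 dpi was 2.19 on the log2 scale (SE 0.29, limma adjusted p = 0.0047), and the later samples overlapped the uninjured ones. Both KCNK changes at 1 dpi were called whichever library was left out, and also when the libraries rich in oocyte genes were removed, which left 1 uninjured library.

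The most abundant potassium channel gene was an inward rectifier. The inward rectifier gene kcnj16, of a basolateral tubule channel in mammals, had 20.4, 21.2 and 28.1 FPKM at 7 dpi and from 32.9 to 68.0 FPKM in all other groups (limma F-test adjusted p = 0.028, and 0.11 without the first or the second library of 7 dpi). Its neighbour kcnj2a, 7228 bases away, had 15, 13.1 and 22.6 FPKM at 1 dpi, against 11.1, 5.29 and 5.81 in uninjured kidneys. It was not called at 1 dpi, and its call in the limma F-test was lost without any 1 of 10 libraries. For kcnj13 the values were 9.45, 4.26 and 8.90 FPKM at 1 dpi and 7.23 to 18.7 on the later days, against 21.9, 29.0 and 17.2 in uninjured kidneys (injured against uninjured -0.99, SE 0.28, limma adjusted p = 0.02, with 0.065 and 0.076 without the first and the second uninjured library). The modifier subunit gene kcng4a declined over the days, with 4.34, 6.52 and 7.56 FPKM in uninjured kidneys, 2.81, 4.78 and 5.51 at 1 dpi, 6.77, 3.76 and 2.38 at 3 dpi, 3.58, 2.67 and 1.09 at 5 dpi and 0.607, 1.06 and 1.06 at 7 dpi (late against early -1.04, SE 0.25, limma adjusted p = 0.0081). The A-type channel gene kcnd1 was low throughout. It had 0.144, 0.141 and 0.0496 FPKM at 1 dpi, 0.116, 0.0769 and 0 at 3 dpi, 0.635, 0.299 and 0.123 at 5 dpi and 0.0468, 0.124 and 0.0234 at 7 dpi, against 0.597, 0.573 and 0.715 in uninjured kidneys, where 22 to 27 reads lay behind it (-0.52, SE 0.09, limma adjusted p = 0.0021). Only the first sample of 5 dpi reached the uninjured range.

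The metal carriers held genes that were higher and genes that were lower after injury. SLC30 proteins move zinc or manganese out of the cytosol, and SLC39 proteins move them in. All 8 listed metal carrier genes differed among the groups, against 64.5% of all genes tested (limma F-test). The F-test calls of slc41a1, slc39a4 and slc39a13 were lost without any 1 of 9, 2 and 2 libraries. After injury 1 rose (12.5%, against 15.2% of all genes) and 3 fell (37.5%, against 16.9%). The rise of slc30a1a was lost without the first (limma adjusted p = 0.055) or the third uninjured library (0.052). The fall of slc41a1 was lost without the first (0.073). The exporter gene slc30a1a, whose mammalian relative is switched on by zinc, had 68.0, 40 and 65.4 FPKM at 1 dpi, 25.7, 41.7 and 35.4 at 3 dpi, 29.7, 40.7 and 35.5 at 5 dpi and 21.3, 25 and 19.9 at 7 dpi, against 20, 23.0 and 19.8 in uninjured kidneys. It was above the uninjured range at 1, 3 and 5 dpi and back within it in 2 of 3 samples at 7 dpi (limma F-test adjusted p = 0.0019). The gene slc30a7, of a zinc carrier of the secretory pathway, was at 63.3, 78.1 and 65.7 FPKM at 1 dpi, against 32.9, 22.2 and 35.4 in uninjured kidneys, and at 26.2 to 32.9 FPKM in all later samples (limma F-test adjusted p = 0.00036). In the other direction, slc30a10, of a manganese exporter, had 4.43, 4.33 and 8.93 FPKM at 1 dpi, 8.58, 4.25 and 7.82 at 3 dpi, 11, 15.8 and 5.77 at 5 dpi and 6.98, 4.19 and 5.75 at 7 dpi, against 13.8, 18.9 and 23.1 in uninjured kidneys. Apart from 1 sample at 5 dpi, the injured samples were below the uninjured ones (-1.31, SE 0.29, limma adjusted p = 0.0066). The importer slc39a14, which carries manganese, zinc and iron, averaged 3.04 ± 0.533 FPKM at 1 dpi and 1.75 ± 0.358 at 3 dpi, followed by 3.73 ± 0.884 at 5 dpi and then 2.72 ± 1.06 at 7 dpi, against 5.33 ± 0.304 in uninjured kidneys (SD, n = 3 each; -0.78, SE 0.19, limma adjusted p = 0.0093). By contrast slc39a10 was highest at 5 dpi, with 5.2, 7.24 and 7.5 FPKM, against 4.13, 3.59 and 3.87 in uninjured kidneys, and lowest at 1 dpi, with 2.21 to 2.48 FPKM (late against early 0.60, SE 0.13, limma adjusted p = 0.0034).

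**Figure D4:**
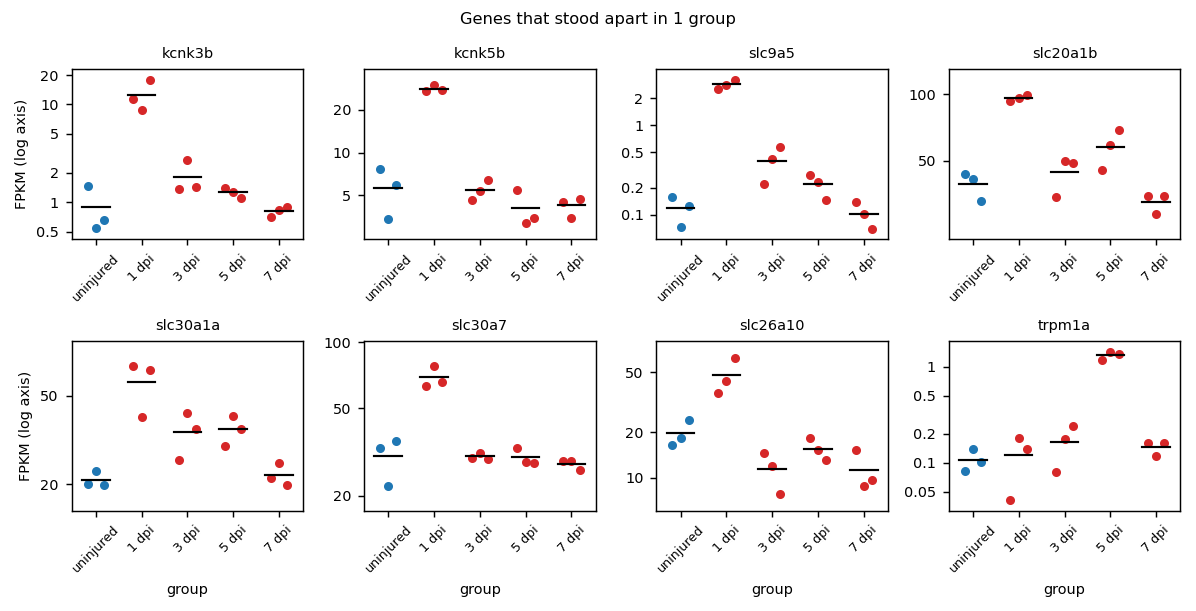
FPKM (log axis) of 8 genes in the 3 kidney samples of each group (points; blue, uninjured; red, injured), with the group mean as a bar. The 7 genes kcnk3b, kcnk5b, slc9a5, slc20a1b, slc30a1a, slc30a7 and slc26a10 have their highest mean at 1 dpi and trpm1a at 5 dpi.

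A gene with a single high day later on was trpm1a, of the TRP cation channels. In mammals TRPM1 is the channel of retinal bipolar cells and is also expressed by pigment cells. It had 1.19, 1.44 and 1.37 FPKM at 5 dpi, from 105 to 146 reads, and between 0.0411 and 0.24 FPKM in all other samples (limma F-test adjusted p = 3e-06; late against early 0.52, SE 0.06, limma adjusted p = 4.8e-05). A water channel gene shared that day. The aquaporin aqp4, at chr20:18263772-18287201, was listed at 4.25, 3.69 and 1.76 FPKM at 5 dpi, from 28 to 63 reads, against 0, 0 and 0.203 in uninjured kidneys, with 3 reads in all. It was listed at 0 in all 3 samples of 3 dpi and in 1 of 1 dpi, reached 1.39 FPKM in the third sample of 1 dpi, and had 2 or 3 reads in each sample of 7 dpi (limma F-test adjusted p = 0.00056; late against early 0.87, SE 0.20, limma adjusted p = 0.0065). The oocyte list was at 4.76, 0.28 and 0.32 in the 3 libraries of 5 dpi. With an ovary covariate in a fit on all 15 samples, both genes were still called at 5 dpi against uninjured kidneys (limma). When the libraries rich in oocyte genes were removed, trpm1a was still called at 5 dpi and aqp4 was not. That fit left 1 uninjured library. The part of oocyte RNA in either result was not tested beyond these fits.

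Among the other TRP genes, trpm7, a magnesium and calcium channel with a kinase domain, had 21.1, 13.3 and 18.2 FPKM at 7 dpi, against 41.9, 37.2 and 39.1 in uninjured kidneys, and ranged from 19.7 to 56.0 FPKM on the days between. It was not called over all groups (limma F-test adjusted p = 0.12). The annotated gene overlaps gatm on the same strand, which was at 1.28, 0.923 and 1.37 FPKM at 7 dpi, against 3.83, 2.33 and 3.34 in uninjured kidneys. The heat- and acid-gated channel gene trpv1 averaged 5.71 ± 2.07 FPKM at 1 dpi and 15.2 ± 4.38 at 5 dpi, against 9.53 ± 0.961 in uninjured kidneys (SD, n = 3 each; limma F-test adjusted p = 0.025, with 0.081, 0.052 and 0.058 without the first and the second library of 1 dpi and the third of 5 dpi). The TRPC4-associated protein gene trpc4apb, an adaptor and not a channel, was at 14.3, 18.8 and 19.0 FPKM at 1 dpi, against 12.4, 8.66 and 11.4 in uninjured kidneys (late against early -0.44, SE 0.13, limma adjusted p = 0.02, and 0.051 without the second library of 5 dpi).

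Aquaporins pass water, and the aquaglyceroporins among them pass glycerol too. Of the 5 listed genes, 1 fell (20%, against 16.9% of all genes) and none rose (15.2% of all genes) after injury (limma). This was aqp10a, an aquaglyceroporin gene, with 3.44, 5.94 and 4.74 FPKM in uninjured kidneys, 3.53, 1.86 and 3.77 at 1 dpi, 1.21, 0.535 and 0.303 at 3 dpi, 1.81, 0.720 and 0.588 at 5 dpi and 0.732, 1.22 and 0.663 at 7 dpi. The samples of 1 dpi overlapped the uninjured ones and the 9 later samples did not (-1.35, SE 0.23, limma adjusted p = 0.0017). Levels of aqp11 were 2.96, 2.24 and 2.78 FPKM at 7 dpi, against 7.15, 7.79 and 5.41 in uninjured kidneys, after 5.31, 6.05 and 10.3 at 1 dpi. In mice loss of the intracellular aquaporin AQP11 gives cystic proximal tubules. Its late against early change was -0.72 (SE 0.20, limma adjusted p = 0.015). The most abundant water channel gene, aqp1a.1, ranged from 30.2 to 64.6 FPKM in uninjured kidneys and from 11.3 to 68.6 after injury and was not called (limma F-test adjusted p = 0.11). In fish aqp1a.1 is also expressed by red blood cells, whose 4 listed genes averaged between 6.40 and 9.37 in log2(FPKM + 1). Values of aqp12, a gene of the pancreas in mammals, were 2.19, 0.781 and 0.316 FPKM in uninjured kidneys and 0.221 to 1.19 after injury. The exocrine pancreas list, in log2(FPKM + 1), was at 4.91 in the first uninjured library, where aqp12 was highest, and at 4.89 and 4.62 in the first and second libraries of 1 dpi and 5.26 in the second of 3 dpi, where aqp12 was at 0.75, 1.02 and 0.612 FPKM.

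Calcium pumps and exchangers return calcium from the cytosol to the lumen of the endoplasmic reticulum or out of the cell. Of the 10 genes, 5 (50%) differed among the groups, against 64.5% of all genes tested (limma). After injury 3 fell (30%, against 16.9% of all genes) and none rose (15.2% of all genes). The most abundant, the sodium/potassium/calcium exchanger gene slc24a3, was at 50, 104 and 46.6 FPKM in uninjured kidneys, 9.72, 18.2 and 43.8 at 1 dpi, 43.7, 26.7 and 29.3 at 3 dpi, 46.9, 64.0 and 31.7 at 5 dpi and 19.8, 10.5 and 28.0 at 7 dpi. Only samples of 5 dpi reached the uninjured range (-1.17, SE 0.40, limma adjusted p = 0.042, lost without any 1 of 9 libraries). The pump gene atp2a2b, of the endoplasmic reticulum, had 16.9, 12.1 and 17.1 FPKM at 7 dpi, against 34.2, 34.9 and 26.6 in uninjured kidneys, and 1 sample of 3 dpi, at 16.4, was as low. The calls of slc8a1b and atp2a2a after injury were lost without any 1 of 8 and 6 libraries. The paralogs of the plasma membrane pump differed in course: atp2b1a was highest at 1 dpi, with a mean of 17.6 ± 3.67 FPKM, against 12.3 ± 2.56 in uninjured kidneys (SD, n = 3 each; limma F-test adjusted p = 0.0083), and atp2b1b was highest at 5 dpi, with 1.56 ± 0.574 FPKM, against 0.566 ± 0.119 (limma F-test adjusted p = 0.073). Neither gene was called on that day against uninjured kidneys.

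All 3 cation-chloride cotransporter genes in the table differed among the groups, against 64.5% of all genes tested (limma F-test). None was called in late against early kidneys, against 35.6% of all genes (limma). The level of slc12a9, an orphan member of the family, was 13.8, 15.8 and 15.9 FPKM at 7 dpi, against 39.9, 36.1 and 26.6 in uninjured kidneys, and 16.5 to 48.6 on the days between. Its F-test p of 0.046 (limma, adjusted) was lost without any 1 of 9 libraries. For slc12a8 the means were 7.39 ± 2.06 FPKM at 1 dpi and 2.90 ± 0.195 at 7 dpi, against 6.14 ± 2.40 in uninjured kidneys (SD, n = 3 each; limma F-test adjusted p = 0.031, lost without any 1 of 6 libraries). The potassium-chloride exporter gene slc12a5a was at 0.0346 to 0.105 FPKM at 3 dpi and 0.0478 to 0.101 at 7 dpi, against 0.238 to 0.388 in uninjured kidneys (limma F-test adjusted p = 0.0047).

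Chloride channels of the CLCN2 type had 3 listed genes, 2 of which fell after injury (limma, 66.7%, against 16.9% of all genes). The most abundant, clcn2b, had 8.81, 8.43 and 8.55 FPKM in uninjured kidneys, 5.57, 6.24 and 7.49 at 1 dpi, 3.55, 3.92 and 4.21 at 3 dpi, 5.36, 5.66 and 5.21 at 5 dpi and 4.26, 3.2 and 3.32 at 7 dpi, all injured samples being lower (-0.75, SE 0.13, limma adjusted p = 0.0015). Its paralog clcn2a averaged 0.101 ± 0.0102 FPKM at 1 dpi, against 0.532 ± 0.282 in uninjured kidneys (SD, n = 3 each; injured against uninjured -0.34, SE 0.09, limma adjusted p = 0.012).

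Voltage-gated sodium and calcium channel genes were at low levels. The sodium channel beta subunit gene scn4bb fell, with 0.203, 0.433 and 0.772 FPKM at 1 dpi, 1.34, 0.218 and 0.144 at 3 dpi, 1.01, 0.976 and 0.489 at 5 dpi and 0.232, 0.454 and 0.762 at 7 dpi, against 2.07, 2.26 and 1.54 in uninjured kidneys. No injured sample reached the uninjured range (-0.93, SE 0.21, limma adjusted p = 0.0065). The sodium channel alpha subunit genes scn4ab and scn8aa averaged at most 0.883 and 0.146 FPKM in any group and were not called (limma F-test adjusted p = 0.49 and 0.23). Among the calcium channel genes, the beta subunit gene cacnb2b had its highest mean at 1 dpi, 2.37 ± 0.566 FPKM, against 1.46 ± 0.369 in uninjured kidneys (SD, n = 3 each; limma F-test adjusted p = 0.0099), and cacna1hb was not called (limma F-test adjusted p = 0.13). The muscle channel gene cacna1sa had 12 to 24 reads at 1 dpi, against 2 to 5 in uninjured kidneys. Neither cacnb2b nor cacna1sa was called at 1 dpi against uninjured kidneys.

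A few members followed the oocyte genes and not the injury groups. The claudin cldng had 205, 8.15 and 284 FPKM in uninjured kidneys, 9.95, 105 and 3.26 at 1 dpi, 4.26, 7.22 and 6.01 at 3 dpi, 161, 5.60 and 4.18 at 5 dpi and 44.9, 29.8 and 48.5 at 7 dpi. Its 4 highest values were in the 4 libraries with the highest oocyte means, of 4.06 to 5.74, and its next 3 were in the libraries of 7 dpi. The channel genes clcn2c and kcns3b had the same order of libraries in this sense. For clcn2c, 174, 203, 107 and 116 reads were recovered in those 4 libraries, 19 to 47 in those of 7 dpi and at most 4 in the other 8. For kcns3b the 4 libraries had 84, 149, 60 and 134 reads, those of 7 dpi 13 to 26 and the other 8 at most 1. The sodium channel gene scn1a was similar, with 63, 44, 26 and 34 reads against at most 3 in the 8 libraries low in oocyte genes. None of these 4 genes was called over the 5 groups (adjusted p of the limma F-test from 0.21 to 0.35). The pump subunit atp1b3b, at 27.6, 8.37 and 30.9 FPKM in uninjured kidneys and 8.25, 14.3 and 3.59 at 1 dpi, also had its highest values in oocyte-rich libraries, and its call after injury (-1.17, SE 0.41, limma adjusted p = 0.047) was lost without any 1 of 12 libraries.

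**Figure D5:**
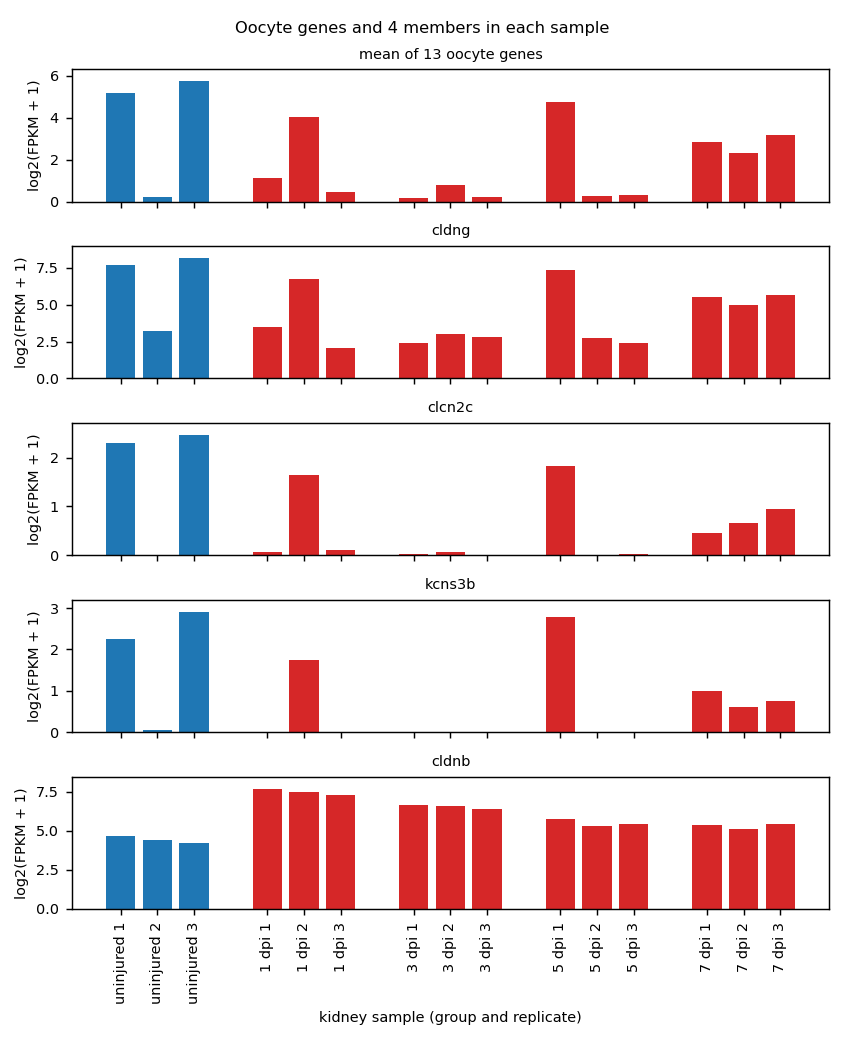
Log2(FPKM + 1) in each of the 15 kidney samples (bars; blue, uninjured; red, injured) of the mean of 13 oocyte genes and of cldng, clcn2c, kcns3b and cldnb. The bars of cldng, clcn2c and kcns3b are tallest where the oocyte mean is 4.06 or more, while those of cldnb are tallest in the 3 samples of 1 dpi.

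Libraries poor in oocyte genes were therefore compared on their own at 1, 3 and 5 dpi, an alternative chosen after the values were seen. With 1 uninjured library left, the lone sample was assumed to vary like the other groups, and 10, 7 and 2 members were called, with 7, 5 and 2 of them also called when all libraries were used. Among all 5639 genes tested in these libraries, 688, 149 and 74 were called.

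Regulators of ion transport were listed separately, as kinases, hormones, receptors, enzymes, scaffolds, ubiquitin ligases and transcription factors. The genes cahz and pdzk1 on this list are also on the lists of red blood cell and proximal tubule genes. Of the 57 genes listed, 19 are in the table. Of these, 13 (68.4%) differed among the groups, against 64.5% of all genes tested (limma). After injury 2 rose (10.5%, against 15.2% of all genes) and 6 fell (31.6%, against 16.9%). In late against early kidneys none was higher (15% of all genes) and 8 were lower (42.1%, against 20.5%). The kinase gene sgk1, which in mammals raises sodium and potassium transport in the distal nephron, had 376, 432 and 415 FPKM at 1 dpi, against 118, 115 and 87.1 in uninjured kidneys, and 98.9, 53.8 and 77.1 at 7 dpi. The vitamin D 24-hydroxylase gene cyp24a1 was at 16.0, 36.9 and 30.1 FPKM at 1 dpi, against 0.365, 0.196 and 1.34 in uninjured kidneys. In contrast, hnf4a, a transcription factor gene of the proximal tubule, had 7.02, 6.15 and 5.42 FPKM at 1 dpi, against 20.5, 22.0 and 15.2. These counts were not recomputed without single libraries.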

How the data were processed

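Whole kidneys of zebrafish were profiled by RNA-seq (NEBNext Ultra libraries, NovaSeq, paired ends; use of strand is not stated). The authors deposited 1 table of FPKM values, normalized for gene length and mapped fragments, with 5686 genes and 15 sample columns. The submitters' processing notes name GRCz11, StringTie 1.3.3b, featureCounts 1.5.0-p3, DESeq2 and Seurat; the aligner is not given in the sources used here. A column of group codes was not used. The low FPKM steps gave whole reads for 100.0% of genes, by a search that accepted values within 0.02 of a whole number, and hence the library totals.

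Genes above 0 FPKM in at least 3 of 15 samples were kept (5685). Log2(FPKM + 1) was tested with limma 3.58.1 (R 4.3.3; trended eBayes, Benjamini-Hochberg adjustment over all genes tested, threshold 0.05). Every day after injury was set against uninjured kidneys in a fit of 6 samples, and the F-test, the 4 injured groups against uninjured kidneys, and 5 and 7 dpi against 1 and 3 dpi used all 15. Tables were prepared with Python 3.11.15, pandas 2.3.3 and numpy 2.4.6. The tests were run on simulated data with the same dispersion for every gene and no differences in cell makeup. That check therefore does not cover the differences in makeup between these libraries. Alternatives were another pseudocount, no filter, a stricter filter, median-of-ratios and quantile scaling, no trend, a replicate block, a fit on all samples, an ovary covariate, limma voom on the recovered reads and leaving out each library.

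Groups came from the sample labels. Symbols were matched in lower case, which left out 4 upper-case symbols. Genes named are, per comparison, the 5 largest called rises and falls without overlap, the most abundant gene of each class, listed nephron segment genes, and every gene of a class of at most 6; other genes were chosen after their values were seen. The members and lists were chosen with earlier results of these data known.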

Additional observations from a re-analysis of the deposited data

Results flagged for a closer look

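Late (5 and 7 dpi) and early (1 and 3 dpi) injured kidneys differed in 25 of the 89 genes (28.1%) in the limma test of that difference, against 35.6% of all genes tested. The 20 of these that the rule for named genes covers are given here, 17 lower and 3 higher late. The others were slc26a10, slc30a1a, slc39a4 and cldnd1b, lower late, and slc39a10, higher late. Values below are log2 changes, late over early. The claudins cldnb and cldnc were at -1.60 and -0.69. The potassium channel genes kcnk3b, kcnk5b and kcng4a were at -1.58, -1.43 and -1.04. Among phosphate carriers, slc34a1a was at -1.66, slc20a1a at -0.97 and slc20a1b at -0.58. The proton and zinc carriers slc9a5, slc9a3.1 and slc30a7 were at -1.0, -0.76 and -0.64, and the proton pump genes atp6v0a1a and atp6v0a2b at -0.67 and -0.60. The water channel gene aqp11 was at -0.72. Smaller falls were those of trpc4apb (-0.44), cacnb2b (-0.39) and cacna1sa (-0.12). Of the 20, those higher late were aqp4 (0.87), fxyd6l (0.71) and trpm1a (0.52). Under quantile normalization 14 of the 25 calls remained.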

How the results depend on the processing

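Leaving out 1 library gave 7 to 16 calls at 1 dpi and 1 to 30 at 3 dpi, then 0 to 4 at 5 dpi and from 0 to 37 at 7 dpi, 54 to 63 in the F-test, 22 to 38 in injured against uninjured and 21 to 27 in late against early kidneys. One fit on all 15 samples gave 34, 28 and 16 calls at 1, 3 and 5 dpi, an ovary covariate 35 at 1 dpi, libraries low in oocyte genes alone (chosen after seeing the data) 10, 7 and 2, and quantile normalization 13 at 7 dpi. Of the members called, 15.4% were higher at 7 dpi as deposited and 38.5% under quantile normalization, 29.4% and 60% at 3 dpi, 29.4% and 42.4% in injured against uninjured, and 16.0% and 45% in late against early kidneys. The same shares among all genes called were 27.9% and 62.5%, 48.1% and 70.4%, 47.4% and 61.3%, and 42.3% and 44.0%. The late against early change of cldnh turned to 0.50 under quantile normalization (limma adjusted p = 0.049); the cause was not tested.

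With the replicate number as a block, 5, 0, 0 and 0 members were called at 1, 3, 5 and 7 dpi (limma). The counts of 0 had 33, 26 and 36 members at an unadjusted limma p below 0.05. Of all genes, 314, 0, 0 and 0 were called with this block. Between same-numbered samples of different groups, deviations from the group mean correlated at -0.03 on average, from -0.78 to 0.77. The numbers thus showed no steady pairing, but whether samples were paired cannot be told from this. Genes with fewer than 3 reads are limited by depth.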
